A study of Homo sapiens with 372 samples.

Results

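The S100 calcium-binding proteins described here are the genes among S100A4, S100A6, S100A10, S100A11, S100A13 and S100A16 that have a row in the deposited expression table. Rows were found by symbol for 3 of the 6 genes, S100A4, S100A11 and S100A13, out of 9664 genes listed. S100A6, S100A10 and S100A16 were not analysed here. The authors required expression in more than 30% of cells in 1 or more conditions, a limit that 9655 of the 9664 genes and all 3 S100 genes passed. The genes were followed in 338 single cells, over 6 conditions and, for paclitaxel, by the state that the authors' annotation gives to every cell.

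The cells were A2780, an established human ovarian cancer cell line. The study asked how single cancer cells change their transcription under paclitaxel, which stabilizes microtubules, under celecoxib, which inhibits cyclooxygenases, and under both. The table holds 46 untreated control cells, 56 cells after 16 h and 53 cells after 48 h of 5 nM paclitaxel, 63 cells after 2 h and 61 cells after 16 h of 75 µM celecoxib, and 59 cells after 16 h of 5 nM paclitaxel with 75 µM celecoxib. Full-length RNA was sequenced by Smart-seq2 on the Fluidigm C1 system, and no replicate culture is named, so each condition is treated as 1 sample. No test was therefore made between conditions or states, and every SD below is a spread over cells.

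Levels are given as E-values. N is a gene's TPM, a transcript abundance corrected for length, divided by a factor for the cell, and E = log2(N/10 + 1). The factor is the TPM of the most abundant spike-in RNA in that cell relative to its mean over cells. A difference in mean E-value beyond log2 of 1.5 is called past the limit. Control cells gave a median of 6630 genes detected and the treated conditions medians between 6126 and 6351, while read numbers are unknown. The median total of N in a cell lay 0.64 to 1.52 log2 units below that of control cells under each single drug and 0.49 above it with the combination. For that reason the main differences are given on the deposited scale and again after all cells were brought to 1 common total, called the same-total scale. A difference with no scale named is on the deposited scale. Control, 16 h paclitaxel and each celecoxib condition each fell into 1 block of 96 library numbers, and the 48 h paclitaxel cells and the combination cells were split over 2 blocks. Control shared its block with 31 of the 48 h paclitaxel cells, and 2 h celecoxib shared its block with the other 22. The 16 h paclitaxel cells shared theirs with 34 combination cells, and the 16 h celecoxib cells with the other 25. Condition and block cannot be told apart in differences between unsplit conditions.

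S100 proteins are small proteins with a pair of EF-hand calcium-binding loops. Most work as dimers that bind calcium, open a hydrophobic surface and dock onto partner proteins, among them annexins, non-muscle myosin and p53. S100A4 binds non-muscle myosin IIA and is known from motile and metastatic tumour cells. S100A11 binds annexins A1 and A2 and takes part in membrane repair, and S100A13 takes part in the export of FGF1 and IL1A, proteins without a signal peptide.

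All 3 genes lie on the minus strand of chromosome 1 in hg38, in the region that holds most S100 genes. S100A4 (ENSG00000196154) spans chr1:153543613-153550136, S100A13 (ENSG00000189171) chr1:153618787-153631360 and S100A11 (ENSG00000163191) chr1:152032506-152047907. The gene starts of S100A4 and S100A13 are 81.2 kb apart, and that of S100A11 is 1502 kb from that of S100A4. S100A13 overlaps S100A1, which is on the opposite strand, over 235 exon positions. Smart-seq2 does not mark the strand, so reads from these positions cannot be told apart.

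The bases just before the transcription start (RefSeq, GRCh38.p14) are shown because they are the stretch in which the 3 genes differ by core promoter motif. Capitals mark TATAAA in S100A4 and S100A13 and GGGCGG in S100A11. The S100A4 and S100A11 stretches end 1 base before the start, chr1:153545807-153545926 and chr1:152037005-152037124, and the S100A13 stretch covers bases 45 to 16 before the start, chr1:153627521-153627550, since longer S100A13 transcripts carry exons there. Each is written 5′ to 3′ on the minus strand.
S100A4: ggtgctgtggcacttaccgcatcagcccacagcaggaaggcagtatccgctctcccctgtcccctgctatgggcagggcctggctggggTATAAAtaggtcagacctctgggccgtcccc
S100A11: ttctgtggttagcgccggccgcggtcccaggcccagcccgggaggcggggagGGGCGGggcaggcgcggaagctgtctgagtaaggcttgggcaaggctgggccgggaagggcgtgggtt
S100A13: ctccttccccgctgctTATAAAcctcagcc

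TATAAA began 31 bases before the start in S100A4 and 29 bases before it in S100A13, and was not found in the 250 bases before the S100A11 start. Searched on both strands over 250 bases, TATAAA was present in 10.7% and GGGCGG in 42.6% of 35116 promoters. CCAAT was found before S100A13 only among the 3 genes, 116 bases before its start, and in 32.0% of all promoters. TGACTCA was found before none of the 3 and in 4.203% of all promoters. A match is a description of letters and not evidence of binding.

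S100A4 was the most abundant of the 3, detected in all cells but 1 of the 59 combination cells. Its E-values ran from 2.18 through a median of 6.97 to 9.83 in control cells. They ran from 3.26 through 7.06 to 8.48 at 16 h and from 2.07 through 7.68 to 9.83 at 48 h of paclitaxel. The ranges of control and paclitaxel cells overlapped almost whole, with a higher median at 48 h. With celecoxib they ran from 4.16 through 7.54 to 9.92 at 2 h and from 2.01 through 5.55 to 8.33 at 16 h. With both drugs they ran from 0 through 8.30 to 11.43, so that the celecoxib 16 h cells were lowest and the combination cells highest, with overlap. Mean E-values were 6.86 ± 1.52 (SD, n = 46 cells) in control, 8.08 ± 1.74 with both drugs, and 6.81 ± 1.16 (16 h) and 7.47 ± 1.48 (48 h) with paclitaxel. With celecoxib they were 7.50 ± 1.17 at 2 h and 5.61 ± 1.52 at 16 h. In every condition S100A4 lay between the 98.5th and 99.6th percentile of mean N over all genes.

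S100A13 was listed above 0 in all 338 cells and varied less from cell to cell, with SDs between 0.86 and 0.97. Its E-values ran from 3.58 through a median of 5.72 to 8.84 in control cells. They ran from 2.73 through 4.89 to 6.42 at 16 h and from 2.99 through 5.99 to 7.37 at 48 h of paclitaxel. The 16 h cells sat lower than control and the 48 h cells close to it. With celecoxib the values ran from 3.41 through 5.54 to 8.08 at 2 h and from 1.89 through 4.40 to 5.94 at 16 h. With both drugs they ran from 4.74 through 6.54 to 9.14. The highest celecoxib 16 h cell lay below the median of the combination cells. Mean E-values in the same order of conditions were 5.62 in control, 4.87, 5.93, 5.65, 4.36 and 6.64.

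S100A11 behaved unlike the other two and was listed at 0 in 179 of the 338 cells. It was detected in 23 of 46 control cells, or 50.0% (95% Clopper-Pearson interval 34.9 to 65.1%). The share was 39.3% (22 of 56; 26.5 to 53.2%) at 16 h and 60.4% (32 of 53; 46.0 to 73.5%) at 48 h of paclitaxel. It was 34.9% (22 of 63; 23.3 to 48.0%) at 2 h and 63.9% (39 of 61; 50.6 to 75.8%) at 16 h of celecoxib, and 35.6% (21 of 59; 23.6 to 49.1%) with both drugs. These intervals cover counting error over cells only. The intervals of 16 h celecoxib (from 50.6%) and of the combination (up to 49.1%) did not meet, nor did those of 16 h and 2 h celecoxib. All intervals overlapped that of control. For how many other genes such intervals did not meet was not counted.

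Where S100A11 was detected, its level was high, with a median E-value of 5.85 over 159 cells. In control cells the values ran from 0 through a median of 1.03 to 8.00, and the detected cells had a median of 5.44. The detected cells had medians of 4.47 at 16 h and 6.03 at 48 h of paclitaxel. Their medians were 7.06 (2 h) and 5.49 (16 h) with celecoxib and 7.10 with both drugs. Of the 334 other genes with a median at least as high in the cells that detected them, 0 were detected in fewer cells than S100A11, and their median share was 100% of cells. ACTB, GAPDH and EEF1A1, genes used by all cells, were listed above 0 in all 338 cells. Among genes of its level, S100A11 thus had the lowest share of cells detected in this table. Whether a 0 is absence of RNA or a missed capture was not tested. Only 7 cells held an S100A11 E-value above 0 and up to 1, and detection at an E-value above 1 gave shares between 34.9 and 58.5%.

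**Figure D1:**
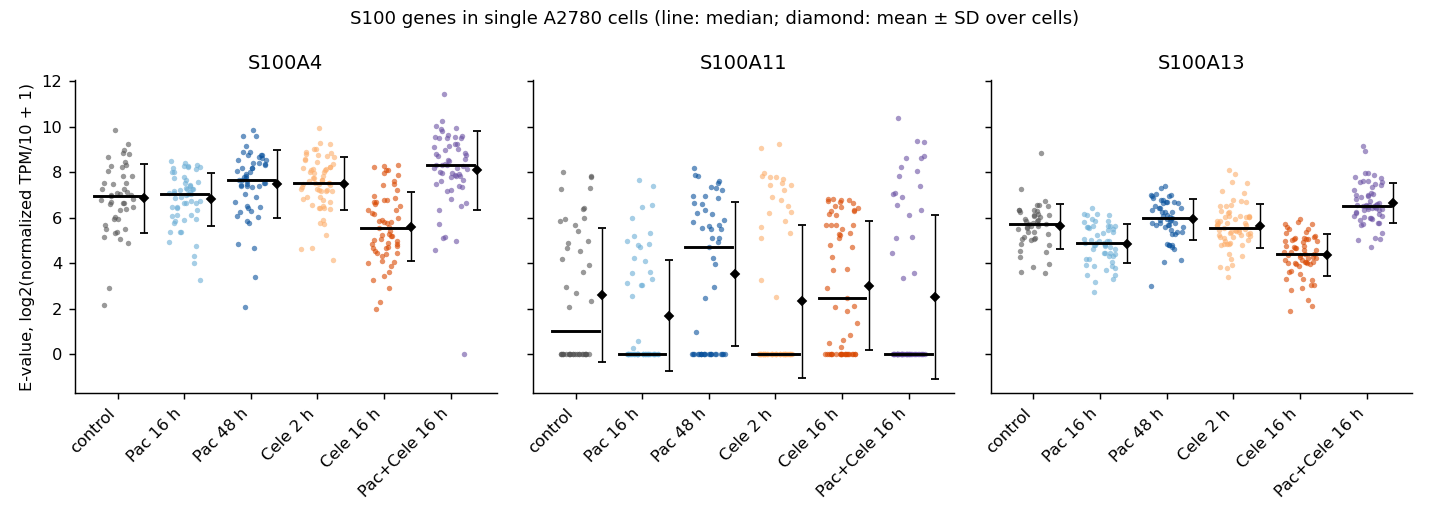
E-value, log2(normalized TPM/10 + 1), of S100A4, S100A11 and S100A13 in every cell by condition (points: cells; line: median; diamond and bar: mean ± SD over cells). S100A4 and S100A13 form 1 cloud per condition, lowest with celecoxib for 16 h and highest with both drugs on this deposited scale, while S100A11 is split into cells at 0 and cells at high values.

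In order of mean E-value, S100A4 ran from the combination through celecoxib 2 h, paclitaxel 48 h, control and paclitaxel 16 h to celecoxib 16 h. Only the last step, from paclitaxel 16 h to celecoxib 16 h, was larger than the smaller SD of the pair, at 1.20. For S100A13 the order was combination, paclitaxel 48 h, celecoxib 2 h, control, paclitaxel 16 h and celecoxib 16 h. For S100A11 it was paclitaxel 48 h (3.54), celecoxib 16 h (3.01), control (2.63), combination (2.51), celecoxib 2 h (2.34) and paclitaxel 16 h (1.70). All 5 steps of S100A13 and of S100A11 were smaller than the spread over cells. S100A11 had SDs between 2.44 and 3.59, and its ranks by mean difference given below carry that spread. On the same-total scale the order changed. All 3 genes were then highest at 48 h of paclitaxel, with means of 7.56 for S100A4, 3.48 for S100A11 and 6.02 for S100A13, and S100A4 (6.33) and S100A13 (5.09) were lowest in control cells.

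**Figure D2:**
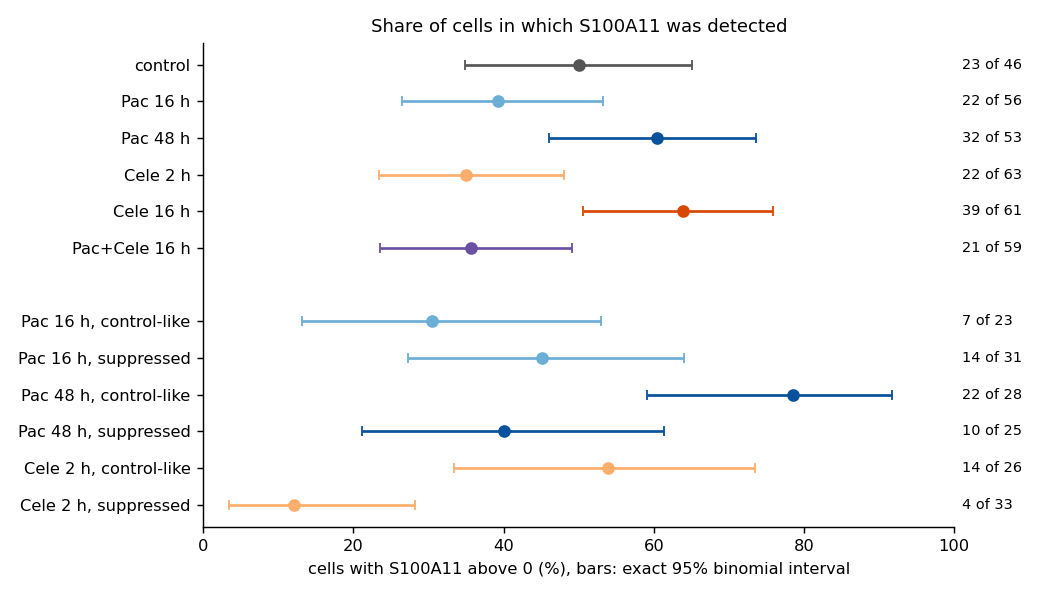
Share of cells with an S100A11 E-value above 0, in percent, by condition and, for paclitaxel and 2 h celecoxib, by the authors' state (points: share; bars: exact 95% binomial interval; counts at the right). The widest gap between control-like and suppressed cells of 1 condition is at 2 h of celecoxib, 53.8% against 12.1%.

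At 16 h of paclitaxel, S100A11 and S100A13 were past the limit downward and S100A4 stayed at the control level. The differences in mean E-value from control were -0.92 for S100A11, -0.75 for S100A13 and -0.04 for S100A4. The share of all 9655 genes past the limit was 37.3% downward and 0.0932% upward, and the median difference of all genes was -0.41. The S100A4 difference was above that of 83.5% of genes. On the same-total scale S100A4 was past the limit upward (0.75), S100A11 within it (-0.51) and S100A13 near 0 (0.04), where 1.40% of genes were past it upward and 10.0% downward.

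At 48 h of paclitaxel, S100A4 and S100A11 were past the limit upward. The differences from control were 0.61 for S100A4, 0.92 for S100A11 and 0.31 for S100A13, while 0.922% of all genes were past the limit upward and 26.6% downward. All 3 were past it upward at the same total, at 1.23, 1.12 and 0.93, against 3.28% of genes. The 22 cells of the first library block gave a S100A4 difference of 0.34. The 31 cells of the second, which is the block of the control cells, gave 0.81. For S100A11 these were 1.25 and 0.68, so that S100A11 was past the limit in both blocks and S100A4 in 1. Against 16 h of paclitaxel, all 3 genes were higher at 48 h, by 0.66 for S100A4, 1.84 for S100A11 and 1.06 for S100A13, with 7.89% of genes past the limit upward. S100A11 had the third rank of 9655 genes in that difference, and the fifth at the same total (1.64, with 6.18% of genes past the limit upward). S100A13 (0.89) was also past the limit at the same total, and S100A4 (0.47) was within it.

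Celecoxib gave S100A4 differences of opposite sign at its 2 times on the deposited scale. At 2 h S100A4 was past the limit upward, by 0.64, with 1.12% of all genes past it upward and 25.7% downward, while S100A11 (-0.29) and S100A13 (0.03) were within it. At 16 h S100A4 (-1.24) and S100A13 (-1.26) were past the limit downward, where 43.9% of all genes were, and S100A11 was at 0.38, where 0.383% of genes were past it upward. The 16 h cells minus the 2 h cells gave -1.88 for S100A4 and -1.29 for S100A13, with 19.4% of genes past the limit downward, and 0.67 for S100A11, with 0.528% upward. The S100A4 difference was among the 17 lowest of 9655 genes. With all cells at 1 total the values were -1.08 for S100A4, past the limit with 3.90% of genes downward, -0.50 for S100A13, within it, and 1.27 for S100A11, past it with 7.88% of genes upward. The ratio of linear means put S100A11 in the opposite direction, at -0.87. Relative to the total of the cell, S100A4 (0.12) and S100A13 (0.09) at 16 h lay at the control level. S100A11 was then at 1.11, past the limit with 7.37% of genes. On that scale S100A4 was at 1.20 and S100A13 at 0.59 at 2 h, both past the limit upward with 3.31% of genes.

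With both drugs S100A4 and S100A13 were past the limit upward and S100A11 was not. The differences from control were 1.22 for S100A4 and 1.03 for S100A13, where 30.4% of all genes were past the limit upward and 1.76% downward, and -0.11 for S100A11. None of the 3 was past it at the same total (0.54, 0.33 and -0.34), with 5.96% of genes upward and 5.80% downward. The mean N of S100A11 was 934 with both drugs and 352 in control cells, so a ratio of linear means went upward instead. Against 16 h of paclitaxel alone, the combination was higher by 1.26 for S100A4, 0.81 for S100A11 and 1.77 for S100A13, with 62.5% of all genes past the limit upward. On the same-total scale these were -0.21, 0.17 and 0.29, all within the limit.

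Against 16 h of celecoxib alone, the combination was higher by 2.46 for S100A4 and by 2.28 for S100A13, with 66.0% of all genes past the limit upward, and by 0.42 and 0.24 at the same total. S100A11 went the other way, with a difference of -0.50, within the limit but the sixth lowest of 9655 genes. Past the limit downward were 0.0414% of genes, and S100A11 was not among them. The SD of S100A11 over cells was 3.59 with both drugs and 2.83 at 16 h of celecoxib. At the same total the S100A11 difference was -1.46, past the limit with 4.39% of genes and the tenth lowest. The lower S100A11 mean came with fewer detecting cells (35.6 against 63.9%) and a higher median in those cells (7.10 against 5.49). A ratio of linear means, which weighs the high cells, gave 1.58 in the opposite direction. All differences from control share the same 46 control cells.

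**Figure D3:**
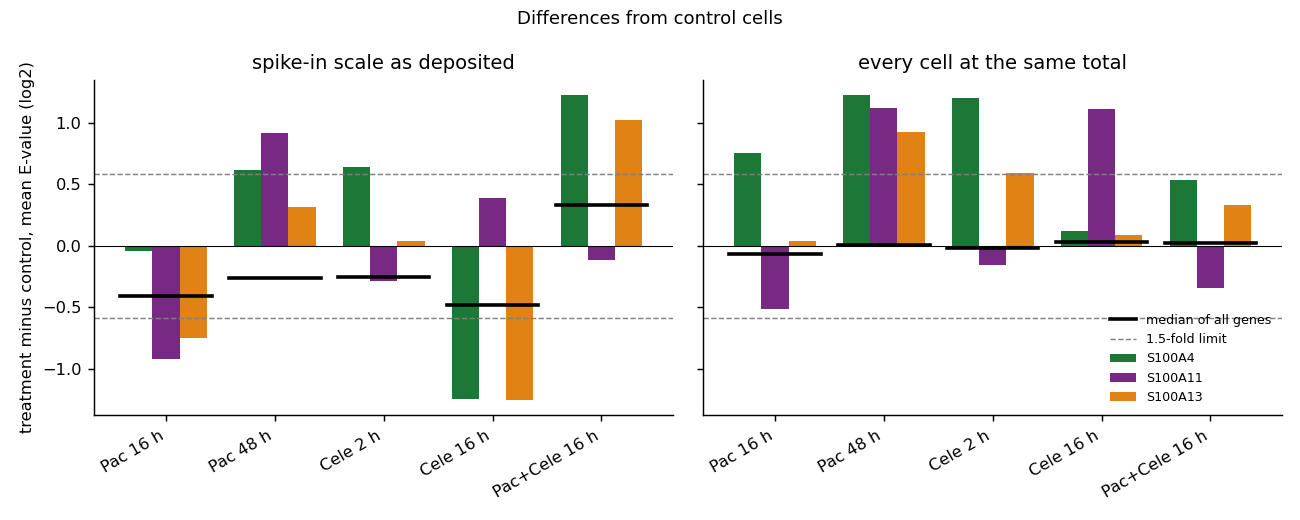
Difference in mean E-value (log2) between each treatment and control, for S100A4, S100A11 and S100A13, on the deposited spike-in scale and with every cell at the same total (bars; black line: median over all genes; dashed lines: the 1.5-fold limit). S100A4 is above the median of all genes in all 5 treatments except 16 h of celecoxib on the deposited scale, where it is at -1.24 against -0.48.

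The authors' annotation put the paclitaxel cells into control-like and suppressed states, with 23 and 31 cells at 16 h and 28 and 25 cells at 48 h, and 2 activated cells at 16 h. These states were assigned from all genes of the same cells, so the values below describe them and test nothing. The study picked S100A4 and S100A11 on these cells among the genes raised in control-like cells at 48 h, so their direction there is not independent evidence. The median number of genes detected was 6572 in control-like and 5871 in suppressed cells at 48 h, and 6490 and 5840 at 16 h. Its part in the differences was not tested.

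At 48 h S100A4 in control-like cells ran from 6.46 through a median of 8.13 to 9.83, and in suppressed cells from 2.07 through 7.06 to 9.60. The control-like cells lacked the low values that reached down to 2.07 among suppressed cells and 2.18 among control cells. The mean was 8.10 ± 0.86 (SD, n = 28) in control-like and 6.77 ± 1.72 (n = 25) in suppressed cells, a difference of 1.32, with 34.5% of all genes past the limit upward. At the same total it was 0.58, within the limit. At 16 h the means were 6.98 in control-like and 6.59 in suppressed cells, and at the same total the difference turned direction, to -0.43. Both 16 h differences were within the limit.

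S100A11 was detected in 22 of 28 control-like cells at 48 h, or 78.6% (59.05 to 91.7%), and in 10 of 25 suppressed cells, or 40.0% (21.1 to 61.3%). Mean E-values were 4.86 ± 2.84 and 2.07 ± 2.88, a difference of 2.79, and 2.39 at the same total. This was the fourth largest of 9655 genes on the deposited scale and the third largest at the same total, where 8.79% of genes were past the limit upward. At 16 h the share was lower in control-like cells, with detection in 7 of 23 (30.4%; 13.2 to 52.9%) against 14 of 31 suppressed cells (45.2%; 27.3 to 64.0%). These intervals overlapped. The difference in mean E-value, -0.20 and -0.56 at the same total, was within the limit on both scales. A ratio of linear means went in the opposite direction. From 16 to 48 h the mean in control-like cells thus went from 1.54 to 4.86, a difference of 3.32 and the first rank of all 9655 genes on both scales (3.10 at the same total), with 11.5% of genes past the limit upward and 7.90% at the same total. In suppressed cells it went from 1.74 to 2.07.

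The 48 h control-like cells were higher than control cells by 2.23 for S100A11, 1.24 for S100A4 and 0.57 for S100A13, with 3.20% of all genes past the limit upward. At the same total these were 2.25, 1.499 and 0.83, with 4.98% of genes upward. The S100A11 difference was 2.64 in the 9 cells of the first library block and 2.04 in the 19 cells of the second, and that of S100A4 was 1.06 and 1.32. The suppressed cells of 48 h minus control gave 0.29 for S100A11 in the first block (13 cells) and -1.48 in the second (12 cells), opposite directions.

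S100A13 differed less between states at 48 h than the other S100 genes. At 48 h its mean was 6.18 ± 0.69 in control-like and 5.64 ± 1.02 in suppressed cells, and at 16 h 5.16 ± 0.65 and 4.58 ± 0.89. Only the 16 h difference, 0.59, was past the limit, with 35.5% of genes past it upward. Both differences between states turned direction at the same total, to -0.21 at 16 h and -0.20 at 48 h, within the limit. The 48 h suppressed cells were higher than the 16 h suppressed cells by 1.07, with 10.5% of genes past the limit upward, and by 0.87 at the same total, with 9.85%. The control-like cells were higher at 48 h by 1.02, so that the later level of S100A13 was higher in both states.

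**Figure D4:**
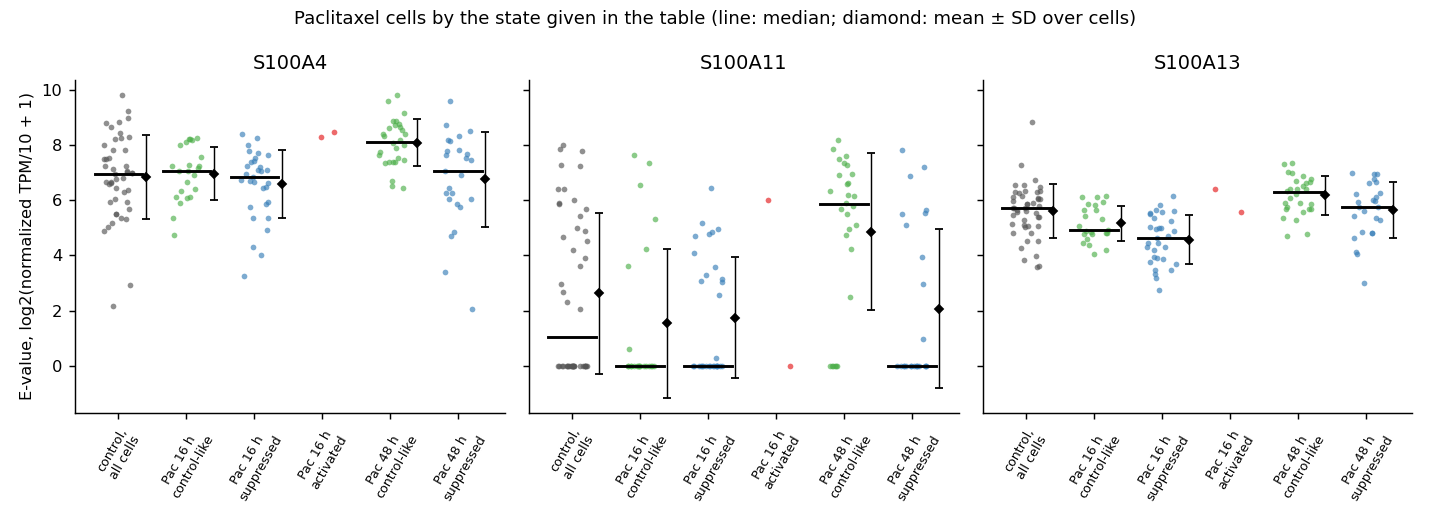
E-values of S100A4, S100A11 and S100A13 in control cells and in paclitaxel cells by time and by the authors' state (points: cells; line: median; diamond and bar: mean ± SD over cells, not drawn for the 2 activated cells). At 48 h 22 of 28 control-like cells lie above 0 for S100A11, against 10 of 25 suppressed cells.

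The 2 h celecoxib cells, which the annotation also splits, gave the widest S100A11 contrast. S100A11 was detected in 14 of 26 control-like cells (53.8%; 33.4 to 73.4%), in 4 of 33 suppressed cells (12.1%; 3.40 to 28.2%) and in 4 of 4 activated cells. The intervals of control-like and suppressed cells did not meet, and for how many other genes this holds was not counted. These states too were assigned from all genes of the same cells. The mean E-values of control-like and suppressed cells differed by 3.11, the first rank of 9655 genes, with 30.1% of all genes past the limit upward. The same-total value, 2.84, also had the first rank, with 7.99% of genes. The median number of genes detected was 6500 in control-like, 5861 in suppressed and 7717 in activated cells. The S100A11 E-value went with the log2 total of the cell in these 63 cells with Pearson's r of 0.71, against -0.06 at 16 h of paclitaxel.

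Over the cells of each condition the 3 genes were positively correlated in pairs, very weakly so in some conditions. The Pearson correlation of S100A4 and S100A13 lay between 0.34 and 0.46 over the 6 conditions, that of S100A11 and S100A13 between 0.17 and 0.60, and that of S100A4 and S100A11 between 0.08 and 0.48. After rescaling to the same total they were 0.13 to 0.49, 0.08 to 0.51 and 0.02 to 0.38. The cells of a condition are from 1 sample and differ in total, and the correlations are a description over 46 to 63 cells. Both pairs with S100A11 were weakest at 16 h of celecoxib.

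Cells were also split on S100A11 detection. In control cells S100A4 had a mean of 7.45 in the 23 cells with S100A11 and 6.26 in the 23 without, with medians of 6649 and 6618 genes detected. At 48 h of paclitaxel it was 8.03 with (32 cells) and 6.62 without (21 cells), with 6543 and 5911 genes detected. The difference was 1.18 in control and 1.40 at 48 h of paclitaxel, and 1.10 and 0.95 at the same total. At 16 h of celecoxib it was 0.15, and 0.31 with both drugs. S100A13 differed by 0.60 in control cells and, with celecoxib, by 1.05 (2 h) and -0.05 (16 h). On the same-total scale these were 0.53, 0.40 and -0.12. The 2 h cells with S100A11 had a median of 6839 genes detected and those without 5953.

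The genes most like the members over all 338 cells were found at the same total, after taking out each condition's mean, out of 5591 genes whose mean E-value exceeded 1. For S100A4 they were SNCG, gamma-synuclein (r = 0.59), and the interferon-induced membrane proteins IFITM2 (0.40) and IFITM1 (0.37), where the 99th percentile over genes was 0.24. SNCG went with S100A4 in all conditions, with r between 0.47 at 16 h and 0.70 at 48 h of paclitaxel. For S100A11 they were TMSB10, an actin-monomer binding thymosin (0.36), IFITM2 (0.36) and NTS, the precursor of neurotensin (0.33). For S100A13 they were IFITM2 (0.39), IFITM1 (0.38) and S100A4 itself (0.33). IFITM2 was thus among the 3 genes most like each member at the same total. On the deposited scale IFITM2 had rank 2 for S100A4 and for S100A11 and rank 10 for S100A13. For S100A13, IFITM1 then had rank 17 and S100A4 rank 77. IFITM1 and IFITM2 are close paralogs between which reads may be divided.

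Of 26 proteins known to bind S100 proteins, 21 had a row. They were past the limit downward in 12 of 21 at 16 h and 7 of 21 at 48 h of paclitaxel, and in 9 of 21 at 2 h and 12 of 21 at 16 h of celecoxib, beside 37.3%, 26.6%, 25.7% and 43.9% of all genes. Upward they counted 0, 2, 1 and 1 of 21 in the same conditions, beside 0.0932%, 0.922%, 1.12% and 0.383% of all genes. With both drugs 7 of 21 were past it upward and 0 downward, beside 30.4% and 1.76% of all genes. Downward at the same total they counted 5, 2, 2, 4 and 2 of 21 in the 5 treatments, beside 10.0%, 5.78%, 8.12%, 7.95% and 5.80% of all genes. Upward at the same total, ANXA1 was past the limit at 16 h (0.83) and 48 h (1.04) of paclitaxel. ANXA4 was past it at 48 h (0.80) and with both drugs (0.71), and MDM2 at 48 h (0.77) and at 16 h of celecoxib (0.74). SLC3A2 was at 1.34 and 2.16 with celecoxib and 1.12 with both drugs. The upward shares of all genes were then 1.40%, 3.28%, 3.31%, 7.37% and 5.96%. The medians of the list, -0.67, -0.42, -0.42, -0.64 and 0.48, lay beside medians of all genes of -0.41, -0.26, -0.26, -0.48 and 0.33. ANXA2, the annexin that S100A10 and S100A11 bind, had a mean of 6.99 ± 1.28 in control cells. It was past the limit downward in all 4 single-drug conditions, by -1.82 and -1.61 with paclitaxel and -1.33 and -2.41 with celecoxib, and also at the same total (-1.04, -0.98, -0.78 and -1.08). With both drugs ANXA2 was at -0.03, and at -0.71 at the same total. ANXA5 was at -1.72, -1.08, -0.89, -1.95 and 0.80 in the 5 treatments, and at -0.99, -0.46, -0.33, -0.74 and 0.16 at the same total. CACYBP and SUGT1, which bind S100A6, were at -1.89 and -1.95 at 16 h of celecoxib, and at -0.51, within the limit, and -0.79 at the same total.

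Of 36 other EF-hand proteins, 33 had a row, with 15, 8, 11 and 20 of 33 past the limit downward in the single-drug conditions in the same order, and 16 of 33 upward with both drugs, beside the shares of all genes given for the binding proteins. With all cells at 1 total, 3, 1, 1, 7 and 2 of 33 were past it downward in the 5 treatments. Upward they counted 2, 4, 2, 5 and 5 of 33, beside 1.40%, 3.28%, 3.31%, 7.37% and 5.96% of all genes. CALM2 was at -2.28 at 16 h of celecoxib, and at -0.90 at the same total. CAPNS1, the small calpain subunit, was at -2.11 there and within the limit in the other 4 treatments. NUCB2, nucleobindin 2, was at 2.06 with both drugs and 1.35 at the same total. The 20 mitotic genes, listed as a measure of cycling cells, were past the limit downward in 15, 20, 18, 20 and 13 of 20 in the 5 treatments. At the same total these counts were 9, 14, 12, 16 and 15 of 20. The downward shares of all genes beside them are those given for the binding proteins. Correlations of the members with the mean of the mitotic genes lay between -0.05 and 0.40 over conditions and members on the deposited scale. At the same total they lay between -0.30 and -0.03 for S100A4, -0.12 and 0.24 for S100A11, and -0.28 and -0.03 for S100A13.

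There are 4 genes with a row within 250 kb of a member, all nearest to S100A13. ILF2, which encodes a double-stranded RNA-binding factor, was at -1.46 and -1.10 with paclitaxel, -1.08 and -1.99 with celecoxib and 0.31 with both. CHTOP, 2.62 kb from S100A13 and an mRNA export factor, was at -0.73, -0.77, -0.72, -0.18 and 0.63. SNAPIN was at -0.83, -1.12, -0.59, -0.49 and 0.91, and INTS3 stayed between -0.24 and 0.13. At 48 h of paclitaxel 3 of the 4 were past the limit downward and 0 upward, beside 26.6% and 0.922% of all genes, where S100A13 was at 0.31. Relative to the cell total 0 of the 4 were past it in either direction, where S100A13 was at 0.93. Among cell type markers, 1 of 6 epithelial, 2 of 4 mesenchymal and 0 of 6 leukocyte markers had a row. VIM had a mean of 3.70 and KRT18 of 0.59 in control cells.

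**Figure D5:**
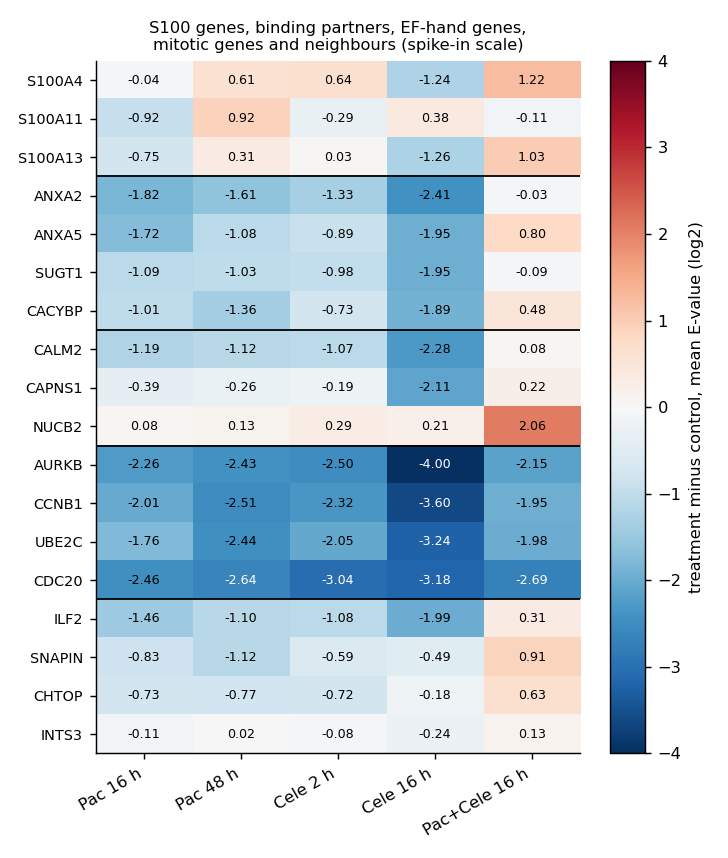
Difference in mean E-value (log2, colour and number) between each treatment and control on the deposited scale, for the 3 S100 genes, genes with the largest differences of the S100 binding partners (4), of the other EF-hand proteins (3) and of the mitotic genes (4), and the 4 neighbours of S100A13 (black lines separate the groups). The 4 mitotic genes shown are below control in all 5 treatments, while S100A4 and S100A13 are above control with both drugs and below it at 16 h of celecoxib (0.12 and 0.09 there at the same total).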

How the data were processed

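Single A2780 cells from 6 conditions were analysed, 338 of 372 cells listed. Per the labels and the methods, the authors removed adapters with Trim Galore. TPM came from RSEM 1.3.0, run with Bowtie2 against GENCODE version 28 (hg38) plus 3 spike-ins. The authors normalized each cell's TPM to its highest spike-in and removed cells with low housekeeping expression. The values they deposited are log2 values, E, of N/10 + 1, which understate changes of weak genes. Groups came from the labels, and states from the authors' annotation in the table. Doublets were not called, because no counts are held.

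Differences are of mean E-values over cells, computed on 9655 genes, with a limit of 1.5-fold. No p-value was made, since each condition is 1 sample. The members and gene lists were chosen with earlier results of these data known. Named genes are all members, the 3 genes most correlated with each, and other S100 genes. Up to 4 genes with the largest difference per list and near the members are also named, as are binding partners past the limit upward at the same total. Of these, 1 gene that this rule names is not reported here. The calls past the 1.5-fold limit, the same-total rescaling and the ranking of correlated genes were tested on simulated data, and the other steps were not. Alternatives were the same total per cell, ratios of linear means, a pseudocount of 1 normalized TPM (10 in the deposited scale), medians, single library blocks, cells without wells noted as empty or debris, detection above an E-value of 1, and no or a 50% detection limit. Positions are from GENCODE version 44. Software was Python 3.11.15 with numpy 2.4.6, scipy 1.17.1, pandas 2.3.3 and matplotlib 3.10.9.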

Additional observations from a re-analysis of the deposited data

Results flagged for a closer look

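Each of the following differences from control or from the partner drug went past the 1.5-fold limit in opposite directions under the same drug, and none of these contrasts was tested, since a condition is 1 sample. S100A11 was at -0.92 at 16 h and 0.92 at 48 h of paclitaxel. S100A4 was at 0.64 at 2 h and -1.24 at 16 h of celecoxib. At 16 h, celecoxib gave an S100A4 difference of -1.24 without paclitaxel and 1.26 with it, and an S100A13 difference of -1.26 without and 1.77 with it. Paclitaxel gave an S100A13 difference of -0.75 without celecoxib and 2.28 with it. Among all 9655 genes, 37.3% were past the limit downward with 16 h paclitaxel against control, and 43.9% with 16 h celecoxib. Upward shares were 66.0% for the combination against celecoxib and 62.5% for the combination against paclitaxel. For the pairs over time the upward shares were 0.922% (paclitaxel, 48 h) and 1.12% (celecoxib, 2 h). How many other genes went past the limit in opposite directions was not counted. At the same total per cell, none of the 5 pairs was past the limit in opposite directions. The S100A11 pair was then at -0.51 and 1.12, the S100A4 pair over time at 1.20 and 0.12, and the S100A4 pair by partner drug at 0.12 and -0.21.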

How the results depend on the processing

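Over 9 comparisons and 3 of their splits by state, the counts of S100 genes past the limit and the genes' differences were recomputed; the settings and the values that moved are given by comparison with control unless stated. The cause of each move was not tested. Shares of all genes past the limit are not given for linear means, a pseudocount of 1, medians or single blocks. The counts under those settings therefore stand without a background. No paired analysis was possible because each condition is 1 sample, and the replicate numbers only name cells.

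At the same total per cell, 16 h of paclitaxel gave 1 gene higher and 0 lower (S100A4 0.75, S100A13 0.040), 2 h of celecoxib 2 higher, 16 h of celecoxib 1 higher and 0 lower (S100A4 0.12, S100A13 0.090), and both drugs 0 higher. The combination gave 0 higher against paclitaxel (S100A4 -0.21), and 0 higher and 1 lower against celecoxib. Celecoxib at 16 h against 2 h gave 1 lower. Control-like against suppressed cells gave 0 higher at 16 h (S100A13 -0.21) and 1 higher at 48 h of paclitaxel.

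With ratios of linear means, 48 h of paclitaxel gave 1 higher, and celecoxib at 16 h against 2 h gave 0 higher. S100A11 then turned direction in 5 contrasts: 0.69 at 2 h of celecoxib, 1.41 with both drugs, 1.58 for the combination against celecoxib, -0.87 for celecoxib at 16 h against 2 h, and 1.27 for control-like against suppressed cells at 16 h of paclitaxel. With a pseudocount of 1, 2 h of celecoxib gave 1 lower, 16 h of celecoxib 1 higher, the combination against celecoxib 1 lower, and control-like against suppressed cells at 16 h 1 lower. With medians, 2 h of celecoxib gave 0 higher and 1 lower, 16 h of celecoxib 1 higher, both drugs 1 lower, the combination against celecoxib 1 lower, and control-like against suppressed cells at 16 h 0 higher.

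The 48 h paclitaxel cells of their first library block alone gave 1 higher (S100A11), and the combination cells of their second block alone against celecoxib gave 1 lower. Leaving out the 1 well noted as empty or debris moved no count, and detection above an E-value of 1 moved no share beyond its interval. All 3 genes passed the 50% detection limit. With 1 sample per condition, the precision of a difference between conditions is unknown.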

Other observations

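The other S100 genes with a row, S100A1 and S100A2, were weak. S100A1, which overlaps S100A13 on the other strand, was detected in 2 of 46 control cells (4.35%; 95% Clopper-Pearson interval 0.53 to 14.8%). It was detected in 5 of 56 cells at 16 h and 18 of 53 (34.0%; 21.5 to 48.3%) at 48 h of paclitaxel. With celecoxib it was detected in 18 of 63 cells at 2 h and 18 of 61 at 16 h, and in 12 of 59 cells with both drugs. Its highest E-value was 3.63, in a combination cell, and its mean difference from control was within the limit in all 5 treatments. S100A2 was detected in 13 of 46 control cells and 20 of 53 cells at 48 h of paclitaxel, and in the control-like and suppressed cells of that time in 14 of 28 and 6 of 25. Reads shared between S100A1 and S100A13 were not tested.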
